A study of Mus musculus with 2 samples.

Results

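The genes described here encode the proteins of the cytosolic ribosome in mouse spleen. A gene was counted as a member when it was annotated as protein-coding and its symbol was Rpl or Rps followed by a number (with an optional a, x, l or l1), or was Rplp0, Rplp1, Rplp2 or Rpsa. Pseudogenes with -ps names, the Rps6k kinases and the mitochondrial Mrpl and Mrps genes were left out. The rule found 82 members among 43346 genes in the deposited tables, of which 51 belong to the large (60S) and 31 to the small (40S) subunit by name. They lie on 19 chromosomes, with 14 on chromosome 7. A few ribosomal proteins carry names outside the rule (such as Rps3a1, Fau, Rpl36al and Rack1) and are described separately.

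The study profiled polyadenylated RNA of spleens from C57BL/6J mice aged 8 weeks by stranded paired-end RNA sequencing. It holds 2 libraries, labelled biological replicates 1 and 2 of 1 group, with no treatment, no genetic change and no control group. The labels describe littermates of both sexes and give no sex for either library. Each SD below therefore measures the spread between these 2 samples, and every difference is one between libraries and not between conditions.

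A ribosome consists of a small subunit, which decodes the mRNA, and a large subunit, which joins amino acids and carries the nascent chain out through its exit tunnel. Each ribosome holds a single copy of nearly every ribosomal protein, so their mRNAs are usually made in similar amounts, and they are among the most abundant in dividing and secreting cells. Most of these mRNAs begin with a C followed by a pyrimidine stretch, the terminal oligopyrimidine or TOP motif, through which growth signals such as mTOR control their translation. In the spleen, the need for ribosomal proteins is best known from Rpsa, whose loss of function in people leads to isolated absence of the spleen, and from the red blood cell lineage, where loss of an allele of genes such as Rps19, Rpl5 or Rpl11 causes Diamond-Blackfan anaemia.

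The strings CTTTC or CTTTT stood near the start in a larger share of members' windows than of all windows, though in fewer than 50% of members' windows. RefSeq promoter windows (GRCm38.p6, 250 bases before to 50 bases after a start) were held for 59 of the detected members, as 70 windows. CTTTC or CTTTT stood on the gene's strand within 30 bases of the start in 38.6% of these windows (27 of 70), against 10.8% of the 11685 windows of all detected protein-coding genes. Over the whole window and on both strands, CTTTC was present in 81.4% against 52.8%, CCGGAAG, a core letter string bound by ETS factors, in 35.7% against 17.2%, and GATGGC, part of the YY1 motif, in 25.7% against 14.9%. TATAAA was present in 7 of 70 windows against 7.02% of all, and CTTTT in 52.9% against 45.4%. A match says only that these letters are present in the window.

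The following 30-base windows show the start region of 9 members, from 15 bases before the RefSeq start to 15 bases from it, on the gene's strand, with runs of 5 or more C or T in capitals. Of the 59 members with such a window, 18 held no run of this kind in it. No such count over all genes is given here. The first 6 shown hold a long pyrimidine run at or near the start, Rplp0 holds a short one, and Rpl41 and Rps4x hold none in this window. In GRCm38.p6 they are Rpl7a at chr2:26910792-26910821 on the plus strand, Rpl13a at chr7:45128731-45128760 on the minus strand, Rpl18 at chr7:45718056-45718085 on the plus strand, Rps18 at chr17:33955651-33955680 on the minus strand, Rps27 at chr3:90213634-90213663 on the minus strand, Rps12 at chr10:23787195-23787224 on the minus strand, Rplp0 at chr5:115559452-115559481 on the plus strand, Rpl41 at chr10:128549154-128549183 on the minus strand and Rps4x at chrX:102189377-102189406 on the minus strand.
Rpl7a: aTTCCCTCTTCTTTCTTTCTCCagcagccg
Rpl13a: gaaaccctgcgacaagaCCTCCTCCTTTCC
Rpl18: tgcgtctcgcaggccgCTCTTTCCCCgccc
Rps18: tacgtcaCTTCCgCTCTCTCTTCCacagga
Rps27: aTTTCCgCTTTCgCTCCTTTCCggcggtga
Rps12: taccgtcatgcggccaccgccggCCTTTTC
Rplp0: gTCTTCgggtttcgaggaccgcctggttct
Rpl41: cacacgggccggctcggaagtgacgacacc
Rps4x: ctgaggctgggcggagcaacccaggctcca

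The first 8 transcribed bases were 60.9% C or T on average in the members' RefSeq windows and 45.6% over all detected protein-coding genes. By the GENCODE M21 start of the leading coding transcript, 31.7% of 79 members began with C, against 17.7% of all, and 12.7% (10 members) began with C followed by 4 or more pyrimidines, against 2.30%. The 2 annotations place many starts apart, by 21 bases for Rps12, 43 for Rpl7a, 281 for Rplp2 and 493 for Rpl35. The share that begins with the motif therefore depends on which start is read. The members' leading coding transcripts were short, with a median of 733 bases, 5 exons and a coding length of 438 bases, against 2572 bases, 8 exons and 1248 bases over all detected protein-coding genes. An annotated small nucleolar RNA gene, whose product guides the chemical modification of ribosomal RNA, lay inside 36.7% of the detected members (29 of 79, with 56 such genes in all), against 1.83%. Rpl4 held 5 of these genes and Rpl13a held 4.

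The libraries held 49686344 and 51393345 expected counts on genes. Spleen cell markers were present: the median level of 4 B cell markers was 369 and 360 TPM (a share of transcripts, corrected for transcript length), and that of 4 T cell markers was 42.6 and 44.4 TPM. Liver markers stood at 1.10 TPM or less, and testis and skeletal muscle markers under 1 TPM. Transcripts of red blood cell precursors and of exocrine pancreas took large shares of the RNA. In library 1 the 5 erythroid markers held 19.4% of TPM, in library 2 30.5%, and the 5 exocrine pancreas markers held 7.45% and 5.70%. In bulk tissue, fewer cells of a type and less RNA per cell cannot be told apart.

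Together the 82 members held 7.73% of TPM in library 1 and 7.14% in library 2 (7.43% ± 0.421, SD, n = 2). As a share of expected counts they held 3.45% and 3.42%, less than of TPM, because their transcripts are short. With the erythroid and exocrine pancreas markers taken out of the total, the members held 10.6% in library 1 and 11.2% in library 2, so which library had the higher share depends on whether those transcripts are counted. The part of the haemoglobin and pancreas transcripts in the difference was not tested beyond this.

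Of the 82 members, 79 were detected at 1 TPM or more in both libraries, and the other 3 were the tissue-restricted paralogs Rpl3l, Rpl10l and Rpl39l. Levels of the 79 were far from equal. The median member stood at 469 TPM in library 1 and 425 in library 2, against 12.2 and 10.9 TPM for the 11572 detected protein-coding genes. Between the highest and the lowest detected member lay a 2488-fold range in library 1 and a 2385-fold range in library 2, and the coefficient of variation over members was 150% and 173%. Only 29 members in library 1 and 30 in library 2 lay within 2-fold of the members' median. The order of the members was nearly the same in both libraries, with a Pearson correlation of 0.98 on log2(TPM + 1) and a Spearman correlation of 0.98 across these 79 genes, which are not independent replicates. In all, 62 members reached 100 TPM in both libraries, 22 reached 1000 TPM, and 29 stood among the 116 genes that make up the top 1% of detected protein-coding genes.

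**Figure D1:**
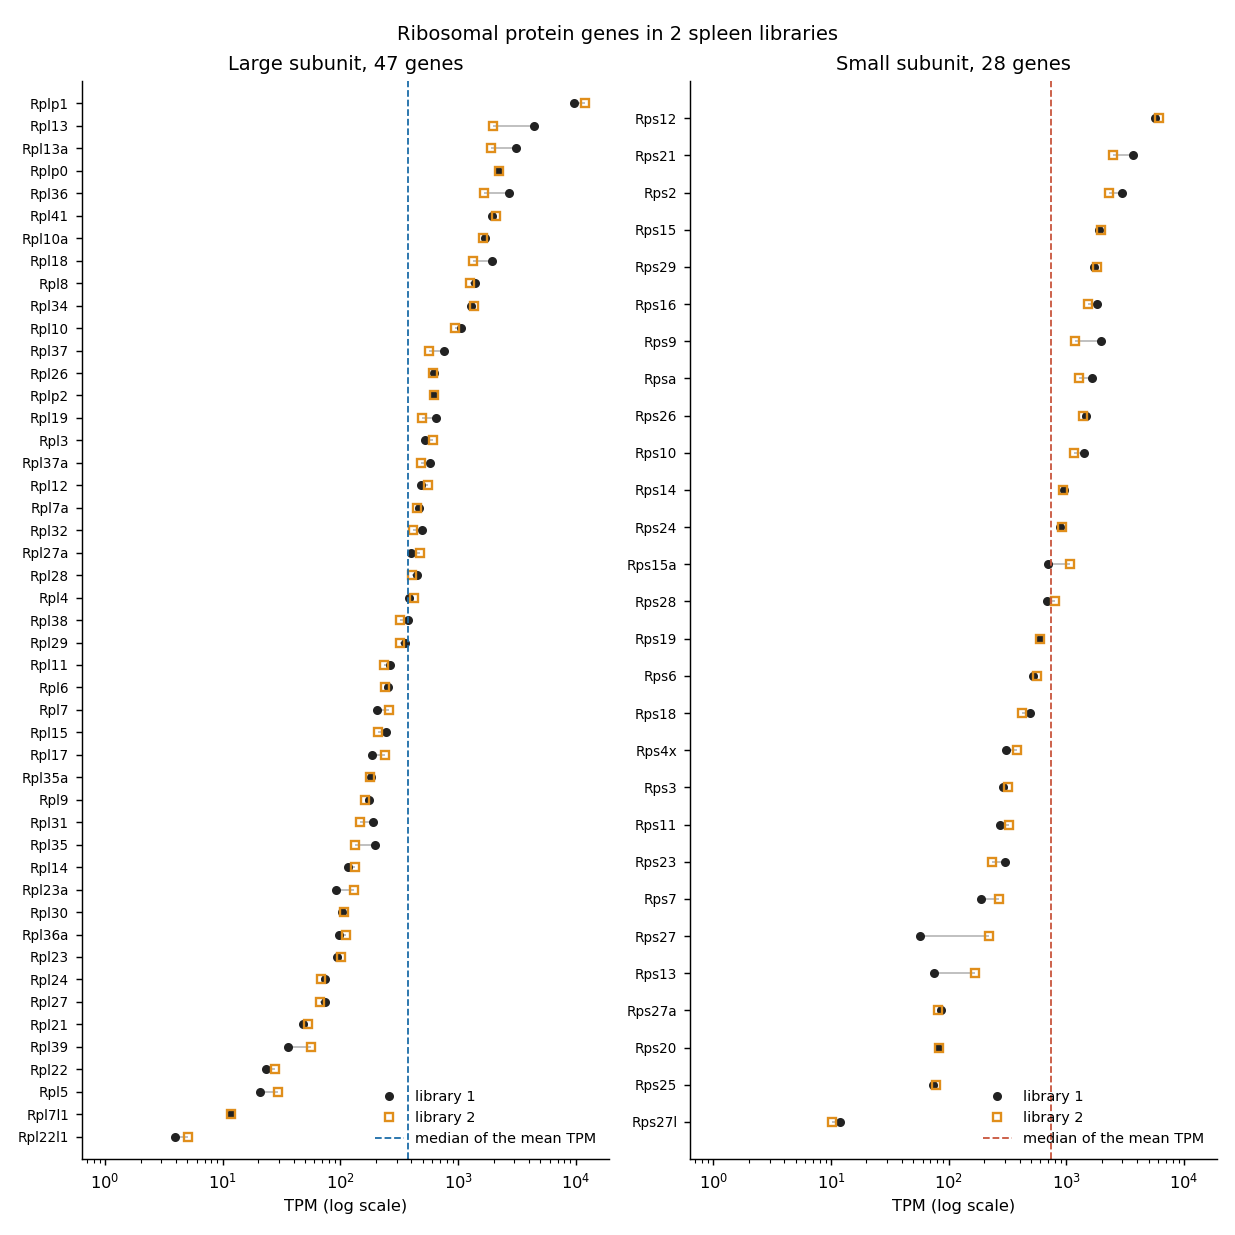
TPM of 75 of the 79 detected ribosomal protein genes on a log scale, 1 row per gene ordered by mean TPM, with large subunit genes on the left and small subunit genes on the right. Filled circles are library 1, open squares library 2, the grey line joins them, and the dashed line is the median of the mean TPM over all detected genes of the subunit (376 for the large and 744 for the small subunit). Levels run from under 10 TPM for Rpl22l1 to 12043 TPM for Rplp1, and for most genes the libraries lie close together beside that range.

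The stalk of the large subunit, which recruits the elongation factors, is built on Rplp0 and pairs of Rplp1 and Rplp2. Rplp1 was the highest member, at 9755 TPM in library 1 and 12043 in library 2, and alone held 12.6% and 16.9% of all member TPM. Rplp0 stood at 2199 and 2222 TPM. Rplp2 stood at 611 and 626 TPM. The 2 small acidic stalk proteins sit in the ribosome in equal numbers. Their TPM lay more than 10 times apart in both libraries, a gap far beyond the spread between the libraries. The size of the gap depends on the effective length, the bases that the TPM correction counts. It was 282 and 298 for Rplp1 and 715 and 617 for Rplp2. In expected counts, Rplp1 had 132446 and 189123 and Rplp2 21039 and 20398, a smaller gap.

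Among the small subunit genes the highest was Rps12, at 5644 TPM in library 1 and 6167 in library 2. Rps21 stood at 3716 and 2514 TPM, and Rps2, which lines the mRNA entry channel, at 3002 and 2311 TPM. Rps12 had the higher value in library 2, and Rps21 and Rps2 each had the lower value there.

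Of the other large subunit genes, Rpl13 stood at 4419 TPM in library 1 and 1986 in library 2. Rpl13a, which also serves in the interferon-linked silencing of inflammatory mRNAs, stood at 3097 and 1904 TPM. Rpl36 stood at 2697 and 1664 TPM, and all of these had the lower value in library 2. Rpl41, which encodes the shortest protein of the ribosome, stood at 1945 and 2094 TPM. The 10 highest members together held 50.3% of member TPM in library 1 and 48.8% in library 2.

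Rpl22l1, Rps27l and Rpl7l1, the detected minor paralogs, were the lowest detected members, followed upward by Rpl5 (20.6 and 29.5 TPM), Rpl22 (23.2 and 27.9 TPM), Rpl39 (35.97 and 56.44 TPM) and Rpl21 (47.9 and 53.0 TPM). Rpl5 binds 5S ribosomal RNA together with Rpl11, and this pair outside the ribosome restrains Mdm2 and so stabilizes p53. Rpl11 stood at 265.2 and 235.6 TPM, above its partner in each library. With the TPM of the copies described below added, the order held in library 1 only, where Rpl11 reached 379 and Rpl5 293 TPM, and turned in library 2, with 316 TPM for Rpl11 and 345 for Rpl5. Rpl39 and Rpl21 are small parts of the large subunit, Rpl39 at the exit tunnel.

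Small subunit genes had the higher median, 683 TPM in library 1 and 726 in library 2 over 31 genes, against 377 and 364 TPM over 48 large subunit genes. The ratio of the medians was 1.81 in library 1 and 2.00 in library 2 (1.90 ± 0.131, SD, n = 2). The ranges of the subunits overlapped almost fully, and the highest as well as the lowest detected member belonged to the large subunit. The summed TPM ran the other way, with 4.30% and 3.95% of all TPM on the large and 3.43% and 3.18% on the small subunit genes.

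The level of a member moved with the GC content of its highest annotated transcript. Across the 79 detected members, log2 mean TPM and GC content had a Pearson correlation of 0.61 and a Spearman correlation of 0.58, against -0.31 and -0.31 for log2 transcript length. These are descriptions over genes that share the same libraries, and no p is given. Rpl22l1, the lowest, had a GC content of 39.0%, and Rplp1, the highest, 57.3%. The part of GC-dependent amplification in this relation was not tested.

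**Figure D2:**
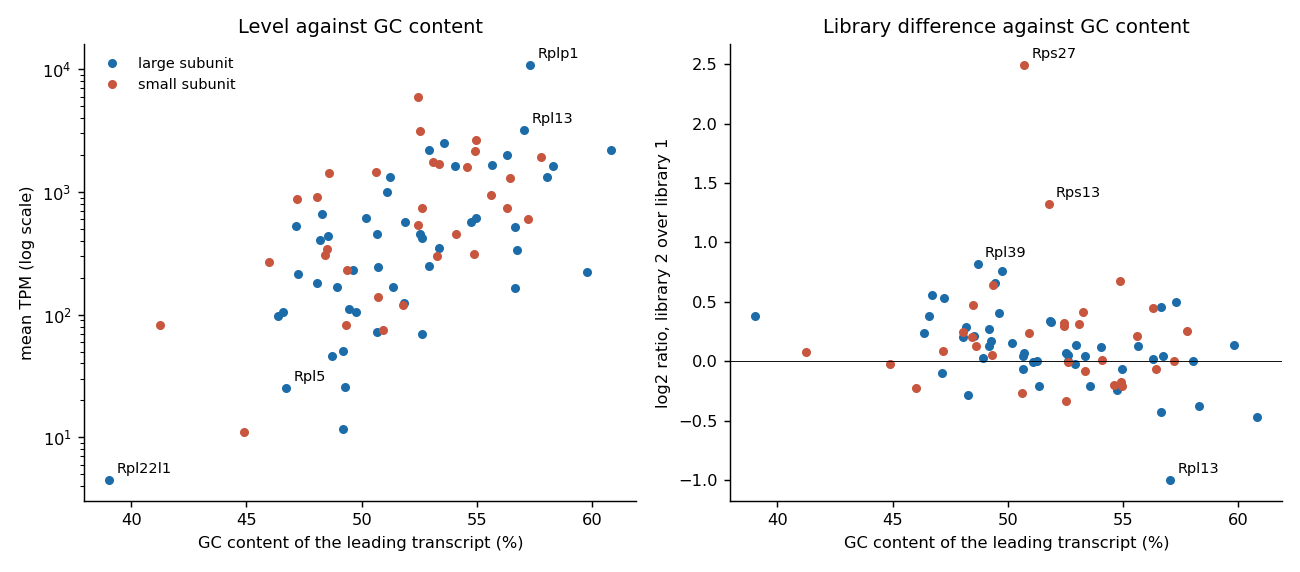
Left, mean TPM (log scale) of the 79 detected members against GC content of the highest annotated transcript in percent. Right, log2 ratio of library 2 over library 1 against the same GC content. Blue is the large and red the small subunit. Levels are higher toward high GC content (Pearson 0.61), while the library difference leans the other way (Pearson -0.24) and Rps27 and Rps13 stand above the other genes.

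Paralogs differed widely. Rpl22, a large subunit protein whose loss impairs early T cell development in mice, and its paralog Rpl22l1 stood at 23.2 and 3.92 TPM in library 1 and at 27.9 and 5.05 TPM in library 2. Rpl22 was thus 5.92 times higher in library 1 and 5.52 times higher in library 2, on the log2 scale 2.51 ± 0.072 (SD, n = 2). The coding sequences of the pair matched at 70.8% of aligned bases. Of the 76-base stretches of the Rpl22 transcript, 98.7% occurred in no other gene of the tables, so reads can be told apart along most of Rpl22. For Rpl22l1, which had 155 and 205 counts, that share was 56.2%. With posterior means the log2 ratio of the pair was 2.39. The pair lies at chr4:152325742-152334071 (Rpl22) and chr3:28805436-28807424 (Rpl22l1) in GRCm38. The 30 bases of the coding sequence with the most differences, positions 38 to 67 of Rpl22 counted from the A of the start codon, hold 17 of them, shown in capitals.
Rpl22: aAAAAaagaagCAGGTTtTgaAgttCACCC
Rpl22l1: aGCCTaagaagTCCACCtGgaGgttTCATT

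Rpl7 stood at 205 and 259 TPM and Rpl7l1 at 11.7 and 11.8 TPM, a ratio of 17.5 in library 1 and 22.0 in library 2 at 62.6% coding identity. Rps4x, on the X chromosome, stood at 305 and 383 TPM, and Rps4l, its retrotransposed relative that is annotated here as a transcribed processed pseudogene and is therefore no member, at 23.8 and 23.5 TPM. The ratio of that pair was 12.8 and 16.4. Rpl36a and Rpl36al, 87.7% identical, were the only pair near parity, at 97.2 against 89.3 TPM in library 1 and 112 against 67.8 TPM in library 2. In each of the 8 pairs the parent was the higher gene in both libraries, though for Rpl36a by a ratio of only 1.09 in library 1.

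Rps27 stood at 57.5 TPM in library 1 and 222 in library 2, while Rps27l, a p53 target, stood at 11.96 and 10.25 TPM. The ratio of this pair was 4.81 and 21.7. The value of Rps27 depends on how reads were split with an identical copy, described below: with copies added Rps27 stood at 570 and 472 TPM, and the copies of Rps27l added nothing. All TPM of Rps27 itself lay on 1 model of 255 bases, of which the tables count 42.2 bases in library 1 and 57.8 in library 2 as effective length. Over 13 of 30 positions in the most different stretch of the coding sequence (positions 6 to 35 of Rps27) the pair carried different bases, shown in capitals.
Rps27: TctCgcAaAGgatctCCtTcaTccCtcTCC
Rps27l: CctGgcTaGAgatctGTtAcaCccTtcCTT

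Rpl3l, made in striated muscle, and Rpl10l, made in the testis, had 0 counts in both libraries. With none counted, up to 3 counts remain possible, a limit that for Rpl3l equals 0.079 TPM in library 1 and 0.071 in library 2, and for Rpl10l 0.077 and 0.069 TPM. Against those limits Rpl3, at 528 and 611 TPM, was at least 6693-fold and 8652-fold higher, and Rpl10, at 1068 and 932 TPM, at least 13883-fold and 13537-fold higher. Rpl39l, best known from the testis, had 3 and 2 counts. Rpl39 exceeded it 270-fold in library 1 (exact Poisson 95% interval 92.3 to 1307) and 664-fold in library 2 (184 to 5486). The 4 testis markers (Prm1, Prm2, Tnp1 and Tnp2) had between 0 and 6 counts in each library. Of the skeletal muscle markers, Myh4 had 1 and 0 counts, Acta1 29 and 58, and Ckm 22 and 45, and the last 2 passed the test between the libraries described below, as higher in library 2. Intervals and limits cover counting error only.

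Many members share sequence with copies elsewhere in the genome. A copy here means a gene outside the rule that holds at least 1 of the 76-base stretches of a member's leading coding transcript and is either annotated as a pseudogene or has models of a single exon. Such copies, 495 in all, were found for 75 of the 82 members. The median member had 59.5% of its stretches to itself, 31 members had less than 50%, and 6 had all of them. How the reads were split between member and copy is the quantifier's estimate. The copies held 1.05% of TPM in library 1 and 0.704% in library 2, or 11.99% and 8.98% of the sum of members and copies.

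For 8 members the copies stood above the member in both libraries. Rpl14 stood at 117 and 133 TPM and the processed pseudogene Rpl14-ps1 at 709 and 497 TPM. Rpl5 stood at 20.6 and 29.5 TPM and its copy Gm15500 at 272 and 316 TPM. Rpl27 stood at 73.6 and 66.5 TPM and Rpl27-ps3 at 547 and 459 TPM. The coding sequence of Rpl5 was identical to its copy over all 891 bases, and that of Rpl27 over all 408 bases, so reads from these parts carry no information on which gene they came from. With the copies added, Rpl5 moved from rank 76 to rank 54 of the 82 members, and Rpl14 from rank 62 to rank 30.

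The other members exceeded by their copies were Rpl12 (482 and 556 TPM against 1061 and 587 for its copies), Rps28 (683 and 805 against 1294 and 1108), Rpl23a (92.5 and 130 against 231 and 168), Rps13 (74.96 and 166.7 against 578 and 525) and Rps27 (57.5 and 222 against 512 and 251). For Rps28 this held in TPM only, since its copy Gm10443 had 288 and 801 counts against 6832 and 9452 for Rps28. The same was true of Rpl12 in library 2, with 18275 counts against 13520 for its copy Gm10275. Of the 2 copies of Rps27, all TPM lay on Rps27rt, annotated as protein-coding with 1 exon on chromosome 9, which matched all 252 coding bases of Rps27. Only 1.48% of the stretches of the Rps27 transcript, with its sequence taken from GENCODE M21, occurred in no other gene. Rps27rt held 266 of its stretches, more than the quantified 255-base model can hold. The M21 sequence is thus longer than that model. The first 30 coding bases show the match, with no base in capitals because none differs.
Rps27: atgcctctcgcaaaggatctccttcatccc
Rps27rt: atgcctctcgcaaaggatctccttcatccc

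Rps13 and its copy on chromosome 8 differed at 2 of 453 coding bases, both within positions 400 to 429, shown in capitals.
Rps13: gtgctcccaccTaattggaaatatgagtcA
Rps13-ps1: gtgctcccaccCaattggaaatatgagtcG

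**Figure D3:**
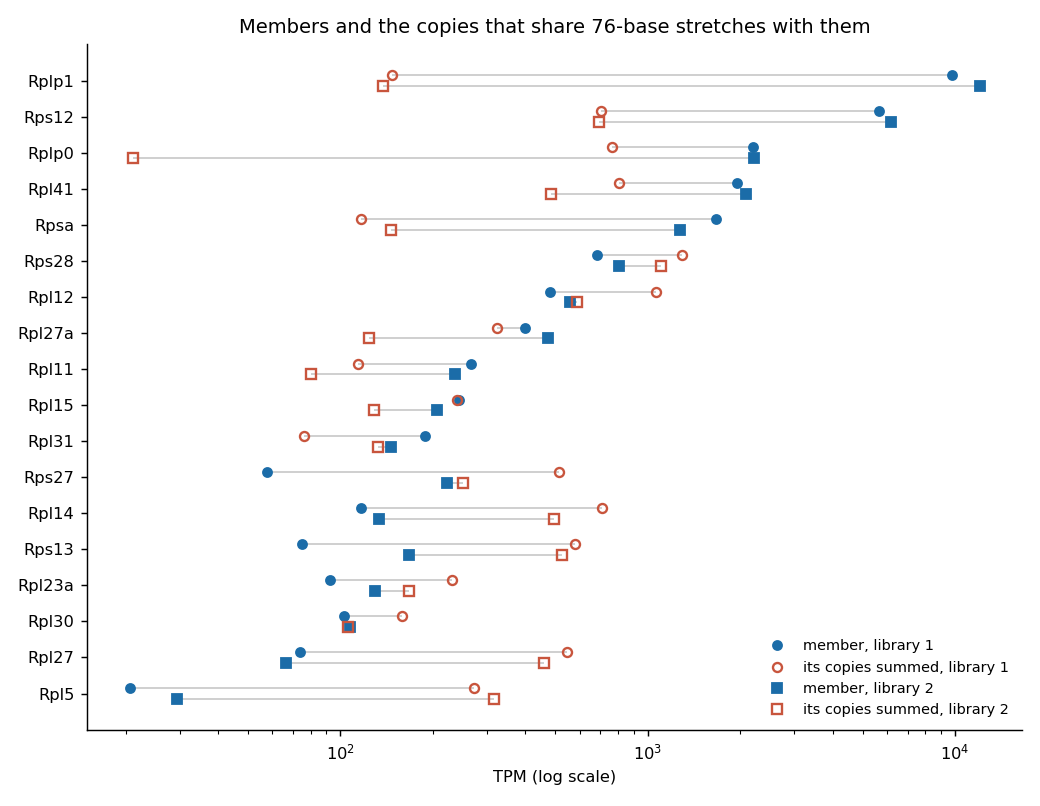
TPM on a log scale of 18 members whose copies reached 100 TPM in at least 1 library (filled blue) and of their copies summed (open red), with circles for library 1 and squares for library 2. For the lower members the copies lie to the right of the member, and for Rplp0 the copies lie far apart between the libraries.

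Among the 41 copies with a mean of 10 TPM or more, 8 lay past 2-fold between the libraries, and the median size of their log2 ratio, without its sign, was 0.36, against 0.26 for the 37 members they belong to. The 2 highest copies of Rplp0, Gm8730 on chromosome 8 and Gm9625 on chromosome 13, stood at 512 and 196 TPM in library 1 and at 17.0 and 3.97 TPM in library 2, while Rplp0 stood at 2199 and 2222 TPM. The coding sequence of Rplp0 differed from Gm8730 at 12 of 951 bases, so reads over those bases can be assigned. Whether these differences are in the RNA or in the assignment of shared reads was not tested.

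The question of which members differ between the libraries was asked with an exact binomial test, two-sided, on expected counts rounded to whole numbers, scaled by edgeR's TMM factors and adjusted by Benjamini-Hochberg over 17547 genes with 10 or more counts. It compares these libraries only. Of the 79 members tested, 64 passed at an adjusted p under 0.05, which is 81.0%, against 50.7% of all genes tested and 88.7% of the 820 genes at 100 TPM or more. The share of members that passed thus lay between these 2 shares, nearer that of genes at high level. Those 820 genes include the 62 members that reached 100 TPM in both libraries. By direction, 45 members were higher in library 2 (57.0%, against 24.1% of all genes tested) and 19 were lower (24.1%, against 26.6%). Genes at 100 TPM or more passed more often than all genes tested. The shares by direction, here and for the gene lists below, are not matched for level. The median log2 ratio of library 2 over library 1 was 0.12 for the members, 0.0050 for all genes tested and -0.097 for genes at 100 TPM or more.

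With the counts of copies added to each member, 38 members were higher in library 2 and 25 lower, and the median log2 ratio was 0.042. Large subunit genes had 27 higher and 11 lower and small subunit genes 18 and 8, with median log2 ratios of 0.094 and 0.13. The median size of the difference, without its sign, was 0.21 for the members and 0.25 for all genes tested.

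Past 2-fold, 2 members were higher in library 2 and 1 lower, against 4.43% and 2.83% of all genes tested, and against 2.68% in either direction of genes at 100 TPM or more. Rps27, a zinc-binding protein of the small subunit, had 117 expected counts in library 1 and 677 in library 2, a log2 ratio of 2.50 (exact binomial test, adjusted p = 2.00e-93). Its copy Rps27rt went the other way, from 3874 to 2282 counts, a log2 ratio of -0.78. Summed, the pair had a log2 ratio of -0.45, so the direction for Rps27 turns once the identical copy is counted with it.

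Rps13, also of the small subunit, had 1332 and 3382 counts, a log2 ratio of 1.32 that became 0.29 with its copies. Rpl13 had 120851 and 61201 counts and a log2 ratio of -1.0003, which stayed at -0.99 with its copies, just inside the limit. Thus no member remained past 2-fold in either direction when copies were added. Among the 3, only Rpl13 rested on a difference that its copies did not change, and its transcript had a GC content of 57.1%. With a smooth trend over GC content removed from all genes, Rps13 and Rps27 stayed past 2-fold and Rpl13, which lay at the limit, moved to -0.89.

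**Figure D4:**
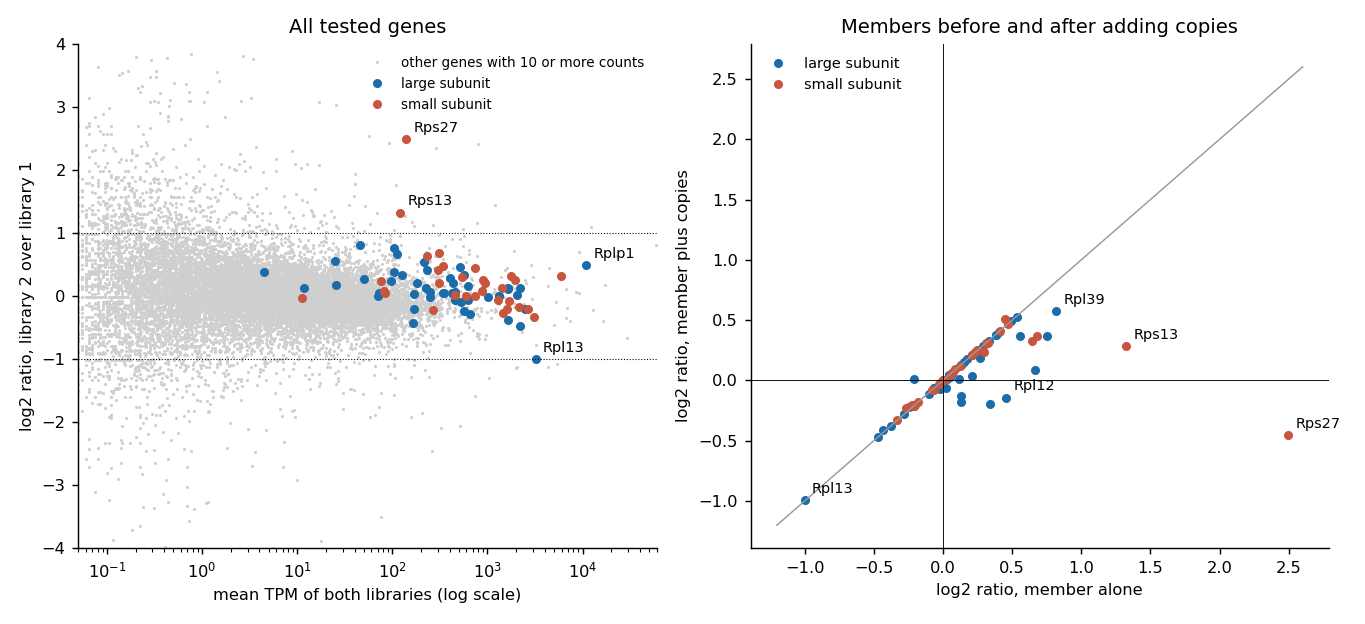
Left, log2 ratio of library 2 over library 1 against mean TPM (log scale), for members (blue large, red small subunit) over all other genes with 10 or more counts (grey). Dotted lines mark 2-fold, and a few grey genes beyond the axis limits are not drawn. Right, the same log2 ratio for each member alone (horizontal) and with its copies' counts added (vertical); Rps27 moves from 2.50 to -0.45 and Rps13 from 1.32 to 0.29, while Rpl13 stays near -1.

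After Rps27 and Rps13, the members with the largest positive log2 ratios were Rpl39 (679 and 1212 counts on its main transcript, 0.82) and Rpl30 (0.76). With copies added these became 0.57 and 0.37. The largest negative log2 ratios after Rpl13 were those of Rpl36 (-0.47), Rpl35 (-0.43), Rpl18 (-0.38) and Rps21 (-0.33). With copies added these were -0.47, -0.41, -0.38 and -0.33, so these 4 stayed nearly where they were, whereas Rpl39 and Rpl30 moved toward 0.

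GC content moved with this direction. The 19 members lower in library 2 had a median GC content of 54.6%, the 45 higher members 50.2% and the 15 others 52.6%. Across the 79 members the log2 ratio and GC content had a Pearson correlation of -0.24 and a Spearman correlation of -0.29, and across 11571 detected protein-coding genes these were -0.32 and -0.37. The relation was therefore present over the whole table and not only among the members. Its part in the members' differences was not tested beyond the removal of the trend, after which the members' median log2 ratio was 0.11.

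TPM and counts did not always tell the same story of a gene. In part, the length assigned to a gene follows the transcripts its reads were assigned to. Effective lengths also differed between the libraries for genes with 1 model. Rpl36, with 1 model of 404 bases, had an effective length of 191 bases in library 1 and 207 in library 2. Rpl30 stood at 103 and 108 TPM, nearly level, with 1251 and 2142 counts, since its effective length in the tables went from 253 to 377 bases. Rpl13a, at 3097 and 1904 TPM, had 34726 and 30379 counts and a log2 ratio of only -0.21. Rps9, at 1981 and 1196 TPM, had a log2 count ratio of -0.20.

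For genes with several models, the assigned length also depends on the share of each model. The median member had 99.17% of its TPM in library 1 and 98.99% in library 2 on transcripts annotated as protein-coding, and 63 of 79 members had 90% or more in both. Over all detected protein-coding genes, 64.0% in library 1 and 62.4% in library 2 reached that limit, against 82.3% and 79.8% of members. Summed over members, retained-intron models held 6.86% and 5.16% of TPM, models subject to nonsense-mediated decay 0.44% and 0.63%, and transcripts with no match in GENCODE M21 3.88% and 2.58%.

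Rpl13a had 95.96% and 95.34% of its TPM on transcripts with no match, whose type is not known here. Among matched models of a type other than protein-coding, the most TPM was on Rps2, with 1620 TPM in library 1 and 1206 in library 2. Rps16 followed with 1248 and 902 TPM, Rps9 with 1123 and 383 TPM, Rps6 with 487 and 491 TPM and Rpl12 with 454 and 484 TPM. For Rps2 this was chiefly the retained-intron model Rps2-203, which held 32557 and 27471 counts. Rps6, the target of S6 kinase, had 93.1% and 87.7% of its TPM on other annotated models, mainly the processed transcript Rps6-202.

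Rpl12 had 52.6% and 48.6% of its TPM on a model annotated for nonsense-mediated decay and 41.6% and 38.4% on retained introns, leaving 5.86% and 13.0% on its coding transcript. Alternative splicing that feeds nonsense-mediated decay is a known means of self-control for Rpl12 and Rpl3. The copy Gm10275 matched the Rpl12 coding sequence at all 495 bases, so reads of the coding part cannot be told apart there. Rpl5 had 90.7% and 93.7% of its TPM on retained-intron models, chiefly Rpl5-202. That model held 503 and 870 counts, against 154 and 139 on the coding model Rpl5-201. The coding sequence of Rpl5 matched its copy Gm15500 at all 891 bases, and that copy held 10567 and 13676 counts. The share of Rpl5 on retained introns thus also depends on how coding reads were split between gene and copy.

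Between the libraries, the coding share moved most for Rpl30, from 20.3% to 62.9%, and it also moved for Rps9, from 43.3% to 68.0%. In Rps9 the 378-base retained-intron model Rps9-206 went from 8762 to 3507 counts, while the coding model Rps9-201 had 21367 and 22937. A member's TPM here thus holds short models whose few bases weigh heavily. For Rps27 the 255-base model described above held all of the TPM. For Rps15a the 250-base model Rps15a-203, of which the tables count 37 bases as effective length in library 1, held 648 of its 702 TPM.

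**Figure D5:**
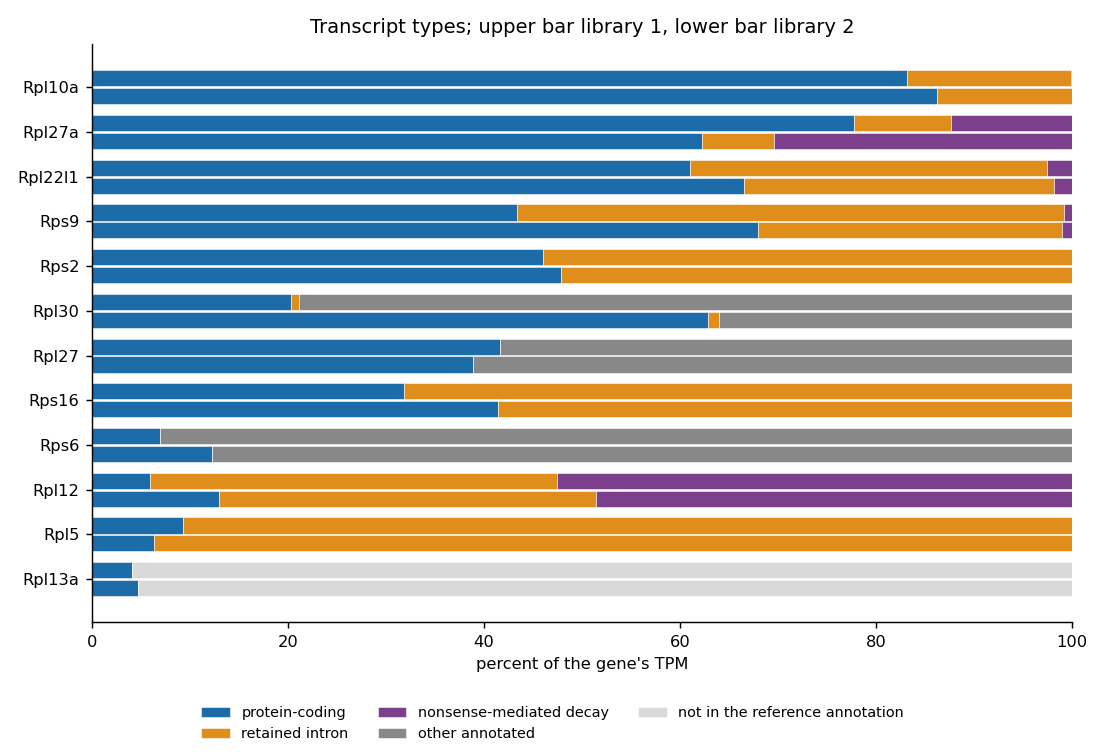
Percent of each gene's TPM on transcripts of each annotated type, for 12 members with under 90% on protein-coding models in both libraries; the upper bar of each gene is library 1 and the lower bar library 2. Rpl5, Rpl12 and Rps6 have little on coding models in both libraries, Rpl30 and Rps9 shift toward coding models in library 2, and 96.0% of Rpl13a in library 1 is on transcripts without a match. The coding sequences of Rpl5 and Rpl12 are identical to a copy, so their coding shares depend on how shared reads were split.

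The ribosomal proteins named outside the rule followed no single direction. Of the 6 such genes measured, 3 were higher and 3 lower in library 2, where 24.1% of all genes tested were higher and 26.6% lower. All 6 stood at 67.8 TPM or more, and 88.7% of genes at 100 TPM or more passed in either direction. Rack1, the receptor for protein kinase C on the small subunit, was the highest at 2781 and 2043 TPM. Fau, made as a fusion with a ubiquitin-like protein, stood at 659 and 911 TPM with a log2 ratio of 0.63 in counts, and Rps27rt had the largest negative ratio, -0.78. The member Rps27a, made as a fusion with ubiquitin, stood at 85.3 and 80.5 TPM.

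Among 18 genes of translation elongation and other TOP mRNAs, 11 were higher and 2 lower in library 2, where 24.1% of all genes tested were higher and 26.6% lower. Their median log2 ratio was 0.12, the same as that of the members to 2 decimals. Eef1a1, the factor that brings aminoacyl-tRNA to the ribosome, was the highest at 2373 and 2555 TPM, close to the level of Rplp0. Naca, of the nascent chain complex, had the largest positive log2 ratio, 0.57, and Eif3f the largest negative one, -0.43. Ribosome assembly factors were far lower than their clients, at a median of 18.5 and 15.4 TPM over 30 genes. Of these, 5 were higher and 6 lower, with Ncl at 0.42 and Rrs1 at -0.41, and Bop1 had the highest mean level, at 86.0 and 65.2 TPM.

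Of 16 regulators of ribosome production and TOP translation, 1 was higher and 11 lower in library 2, beside the same 24.1% and 26.6% of all genes tested, with a median log2 ratio of -0.16. The higher one was Max, the partner of Myc, at 0.18, and Zfp622 had the largest negative value, -0.46. Eif4ebp2, an inhibitor of cap-dependent translation, had the highest mean level, at 136 and 94.8 TPM. The mitochondrial ribosome, which is encoded by a separate set of genes, stood at a median of 20.5 and 18.6 TPM over 76 genes, with 15 higher and 28 lower and a median log2 ratio of -0.094. Mrpl52, at 187 and 350 TPM, had both the highest mean level and the largest positive log2 ratio, 1.12, and Mrps15 had the largest negative one, -0.90.

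Several cell type markers also passed the test between the libraries. Of all genes tested, 24.1% were higher in library 2 and 26.6% lower. Among genes at 100 TPM or more, 88.7% passed in either direction, so small differences of high markers pass too. The 5 erythroid markers were all higher in library 2, with a median log2 ratio of 0.90, as were all 4 red pulp macrophage markers, also with a median of 0.90, at a median level of 22.9 and 41.1 TPM. Among B cell markers 3 were higher and 1 lower, with a median of 0.14, and among T cell markers 3 were higher and none lower, with a median of 0.24. Both fat markers were higher, Cfd at a log2 ratio of 1.32 and Adipoq at 1.10, with summed levels of 44.6 and 99.97 TPM. Of the 5 exocrine pancreas markers 4 were higher in counts and Ctrb1, the highest of them, was lower, at -0.67. Among those 4, Clps and Prss2 had log2 ratios of only 0.053 and 0.062. In TPM, Cela2a (17542 and 16980), Clps (9513 and 8716) and Prss2 (8835 and 8311) had the lower value in library 2. Cpa1 (1629 and 1917 TPM) had the higher value there. Among 3 neutrophil markers 2 were higher and 1 lower. The part of cell composition in the members' differences was not tested.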

How the data were processed

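Polyadenylated RNA of 2 spleen libraries was analysed, from gene and transcript tables that the authors deposited per library. Per the file headers, these hold expected counts (estimated, not whole), TPM, FPKM, the percent of a gene's TPM on each transcript, posterior means, the posterior SD of the counts and interval bounds. Per the notes deposited with the tables, the reference was mm10 with GENCODE M4. For the quantifier, its strand setting and the aligner, the sources used here name nothing, and without a known strand setting reads of overlapping antisense genes cannot be told apart. The deposited junction and contig lists, in mm9, were not used. The members and gene lists were chosen with earlier results of these data known.

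Gene symbols, types and transcript sequences came from GENCODE M21 (GRCm38), matched on gene identifiers without their version: 42462 of 43346 genes and 351 of 370 transcripts of members matched. Entries that are not mouse genes, such as spike-in controls, held 0.670% and 1.24% of expected counts and were left out of library sizes. Expected counts were rounded to whole numbers, scaled by TMM (edgeR 4.0.16 in R 4.3.3; factors 1.010 and 0.990) and compared by an exact two-sided binomial test (SciPy 1.17.1) with Benjamini-Hochberg adjustment over genes with 10 or more counts, threshold 0.05. With 1 library on each side there are no residual degrees of freedom, so the test compares these libraries and covers counting error only. Log2 ratios of library 2 over library 1 used a prior count of 2. The labels speak of littermates and biological replicates but tie neither library to an animal of its own, so SDs may hold technical spread. The test was checked on simulated counts. DESeq2 1.42.0 size factors served as an alternative, beside other count limits and prior counts, posterior means and trends over length or GC content (lowess, fraction 0.3). Adding the copies' counts, leaving out transcripts with an effective length under 100 bases, the GC trend and the motif window near the start were chosen after seeing the data. Genes named with values were the 10 highest and 10 lowest members, the paralog pairs, the 5 largest called log2 ratios in each direction, members past 2-fold, the 5 with most TPM on models not annotated as protein-coding, and the stalk genes. Other members are named where their copies are described, chosen after their values were seen. The values of 4 members and of 1 gene named outside the rule are not reported here singly or drawn by name, and they remain in all counts and sums.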

Additional observations from a re-analysis of the deposited data

How the results depend on the processing

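No paired analysis was possible because there is 1 group of 2 libraries. Leaving out either library gave a summed level of 7.14% to 7.73% of TPM, a median member level of 425 to 469 TPM, a ratio of small to large subunit medians of 1.81 to 2.00, 8 pairs with the parent higher, and 63 to 65 members with 90% or more of TPM on coding models. The summed level was 3.44% of expected counts, 10.9% of TPM without erythroid and exocrine pancreas markers, and 8.31% with copies added. The median member level was 488 TPM with named pseudogenes added and 560 TPM with copies added, and the subunit ratio was 2.10 without a filter on low values and 1.59 with copies added. The median log2 ratio of members between the libraries, 0.12 as reported, was 0.088 with total counts, 0.10 with a minimum of 1 count, 0.082 without the trend over length and 0.042 with copies added, and stayed positive in each. The number of members past 2-fold fell from 3 to 0 with copies added. The number that passed the test lay between 63 and 65 under every scaling, count limit and addition of copies tried. With copies added, 60.3% of these were higher in library 2, against 70.3% as reported. Of the levels and ratios of single genes named by the rules above, 11 of 33 moved beyond the SD of the 2 libraries with copies added. With named pseudogenes 3 of 33 moved, with posterior means 2 of 38, and without very short transcripts 1 of 33. The last was Rps27, from 139.7 TPM to 0. Rps15a was not among those genes, and very short transcripts held 648 of its 702 TPM in library 1 and 1004 of 1066 in library 2. The cause of these shifts was not tested. Differences between the libraries have no replicate, and leaving a library out leaves no value for them. No alternative that changes depth was run.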
